A study of Mus musculus with 62 samples.

Results

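The genes described here are 38 mouse genes of the oligodendrocyte and its myelin sheath, chosen by name out of 47643 gene symbols measured in whole cerebellum. They were sorted by role into 6 membrane proteins of compact myelin, 9 proteins of non-compact myelin, its axon-facing side, its surface and its junctions, 4 enzymes of myelin lipid metabolism, 6 transcription factors and 13 genes whose RNA marks late maturity of the cell. All 38 were above the minimum level for testing, a mean TPM of at least 1 (TPM is a transcript abundance corrected for length and scaled to a fixed total per library), which 14399 symbols reached. Oligodendrocytes are the glial cells that wrap axons of the central nervous system in myelin, a stack of lipid-rich membrane that speeds conduction. Transcription factors such as Sox10, Olig2 and Myrf drive a precursor cell to become a myelinating one, which then makes large amounts of a few structural proteins and of galactolipids. In the cerebellum these cells lie mostly in the white matter and among the granule neurons.

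The samples follow the cerebellum through tumour-driven wasting (cachexia) in female mice, aged 2 months by the labels. Mice received cachectic melanoma cells (CAC), melanoma cells that do not cause cachexia (NCAC) or no cells in a mock injection, and cerebella were collected after 2, 4, 6 or 8 wk. Each of the 12 groups has 5 libraries except CAC at 8 wk, which has 7, giving 62 libraries of messenger RNA, and no genetic change beyond the strain is named for any group. The labels disagree on the strain, which the sample fields give as C57BL6/J and the series design as NCI Ath/nude, a nude strain. The replicates are called biological, but nothing ties each to one animal, so p-values measure the spread between these samples, part of which may be technical.

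The tissue carried the markers of its labelled source, with all 8 granule neuron and all 8 Purkinje neuron genes above the testing minimum. Among 9 Schwann cell genes, which would mark peripheral myelin, Pmp2 was listed at 0 in 54 of 62 libraries. A few libraries of 8 wk stood apart. Mock replicate 1 had the highest mean of 12 brainstem neuron genes, 1.93 on the log2(TPM + 1) scale where its 4 companions had 0.85 to 1.06, and the highest mean of the 38 genes, 6.17 in a mock range of 5.73 to 6.17. Mock replicate 5 had the highest summed microglia genes, 213 TPM where the 4 others had 137 to 188 TPM. CAC replicate 3 had a mean of 5.00 for 12 glucocorticoid response genes, while its 6 companions had 5.84 to 6.51 and mock libraries 4.44 to 5.13. Counts of the 38 genes against mock are also given without each of these libraries, and the calls lost without mock replicate 1 are named.

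The first question was whether these genes differed between cachectic and mock-injected mice at 8 wk, the last time point. Of the 38 genes, 24 fell and 2 rose in CAC against mock (limma, Benjamini-Hochberg adjusted p under 0.05), while among all 14399 genes tested 7.34% fell and 13.4% rose. Without mock replicate 1 the count that fell was 16, and without mock replicate 5 it was 27. The 8 calls lost without mock replicate 1 were those of Aspa, Cnp, Mbp, Mog, Olig1, Sox10, Ndrg1 and Tmem125. With the 2 groups fitted alone 17 fell, and the calls of Ermn, Gpr37, Mbp, Olig1, Sox10, Ndrg1 and Tmem125 were lost. The median difference of the 38 genes was -0.33 on the log2(TPM + 1) scale, against 0.02 for all genes tested. A total of 32 of the 38 lay below 0, against 43.3% of all genes. In bulk tissue, fewer oligodendrocytes and less of these RNAs per oligodendrocyte cannot be told apart.

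The counts were uneven across roles. All 4 lipid enzymes fell, with a median difference of -0.46, and 10 of 13 late maturity genes fell, with a median of -0.41. In the non-compact, surface and junction group 6 of 9 fell and 1 rose, with a median of -0.32. Among transcription factors 2 of 6 fell and 1 rose, with a median of -0.17. Of the 6 compact myelin membrane proteins only Pllp and Mbp fell, and the group's median was 0.05. No test compared one role with another. The plot of all 38 differences shows this split gene by gene.

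**Figure D1:**
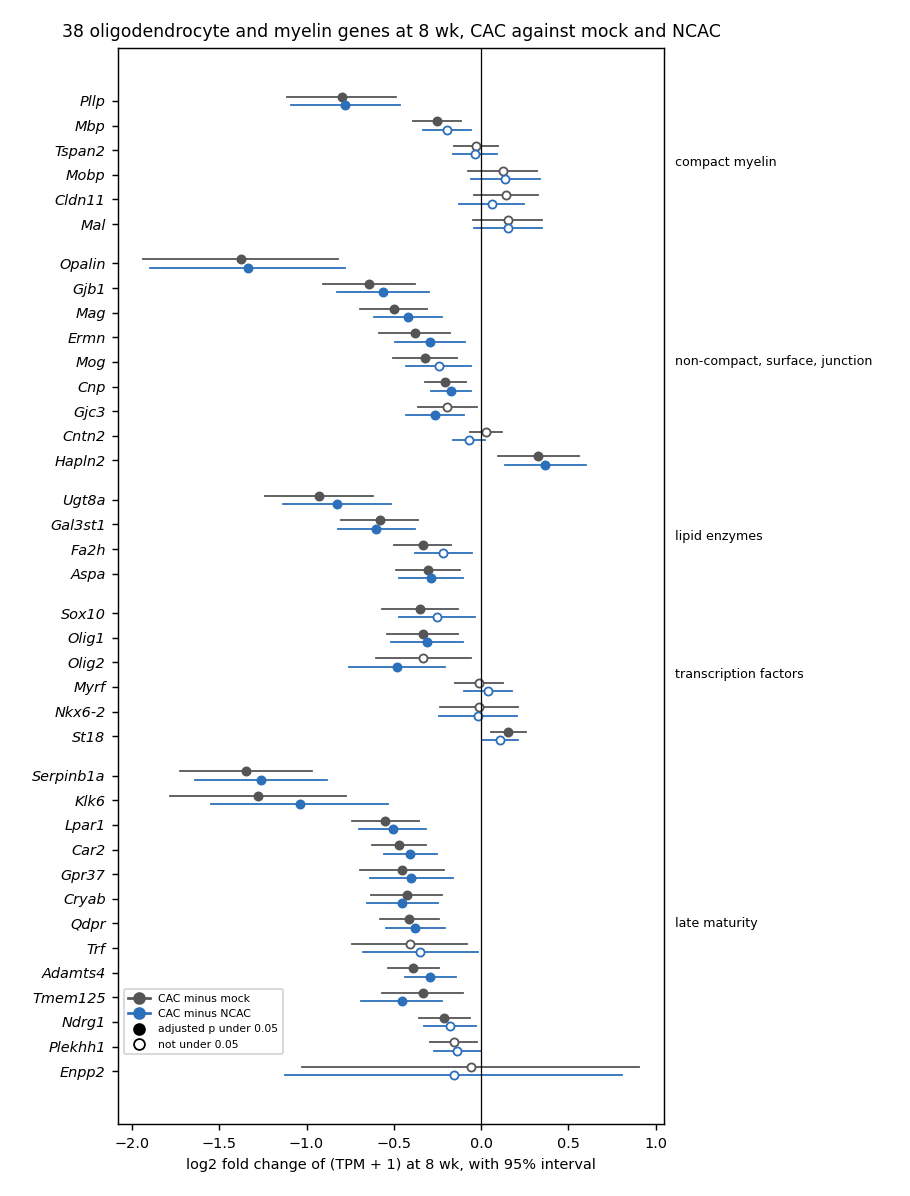
Differences of the 38 genes at 8 wk, CAC minus mock in grey and CAC minus NCAC in blue, as log2 fold change of TPM + 1 on the x axis with 95% intervals; filled points had an adjusted p under 0.05. Opalin, Serpinb1a and Klk6 lie below -1 in both comparisons, Hapln2 lies above 0 in both, and the interval of Enpp2 spans -1.03 to 0.91 against mock.

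The lipid enzymes supply and modify the lipids of myelin. Ugt8a makes galactosylceramide, the main glycolipid of the sheath, and its gene lies at chr3:125865271-125938619 (mm10, minus strand). Mock libraries held 57.8, 47.6, 57.7, 43.8 and 38.3 TPM of Ugt8a, and NCAC libraries 43.7, 54.6, 30.5, 47.1 and 53.0 TPM. The 7 CAC libraries ran from 14.5 to 43.4 TPM with a median of 24.6 TPM. Only CAC replicate 3, at 43.4 TPM, reached the mock range; the other 6 were below all 5 mock libraries. The log2 difference from mock was -0.93 ± 0.15 (SE, adjusted p = 2.54e-05) and from NCAC -0.82 ± 0.15 (adjusted p = 3.01e-04). Gal3st1 adds sulfate to that lipid to give sulfatide. It was measured at 11.9, 10.8, 13.6, 9.91 and 8.36 TPM in mock, and at 8.96, 11.99, 11.6, 11.0 and 11.4 TPM in NCAC. CAC libraries lay between 5.65 and 8.37 TPM, with a median of 6.94 TPM. Every CAC library was below every NCAC library, and 1 reached the lowest mock value. Gal3st1 fell by 0.58 ± 0.11 against mock (adjusted p = 1.45e-04) and by 0.60 ± 0.11 against NCAC (adjusted p = 2.11e-04), both on the log2 scale. Fa2h, which hydroxylates the fatty acids of these lipids, fell by 0.33 against mock (adjusted p = 0.00247). Aspa, which frees acetate from N-acetylaspartate, had the lowest mean TPM of the 38 over all libraries and fell by 0.30 (adjusted p = 0.0143). All 7 CAC values of Aspa, 6.87 to 8.17 TPM, lay below the mock values of 8.35 to 11.5 TPM.

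Among the proteins of non-compact myelin, surface and junctions, Opalin stood out by size. Opalin is a transmembrane protein of the oligodendrocyte, encoded at chr19:41061710-41077113 (mm10, minus strand). Its mock libraries read 18.8, 15.2, 15.02, 12.9 and 9.78 TPM and its NCAC libraries 14.5, 15.6, 11.1, 11.8 and 15.6 TPM. CAC libraries spanned 2.61 to 10.4 TPM around a median of 4.55 TPM. Replicate 3, at 10.4 TPM, was the 1 CAC library inside the mock range, and none reached the NCAC range. The log2 difference was -1.38 ± 0.28 from mock (adjusted p = 3.08e-04), a 2.60-fold lower value of TPM + 1, and -1.34 ± 0.28 from NCAC (adjusted p = 8.96e-04).

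Gjb1 is a connexin of oligodendrocyte gap junctions. It gave 41.2, 31.7, 41.6, 26.8 and 30.5 TPM in mock and 31.3, 37.4, 28.3, 30.03 and 33.4 TPM in NCAC. In CAC it ran from 14.3 to 32.7 TPM with a median of 18.8 TPM, and 5 of 7 libraries were below all mock libraries. Gjb1 fell by 0.64 ± 0.13 on the log2 scale against mock (adjusted p = 3.21e-04). Mag, an adhesion protein on the axon-facing membrane, read 165, 136, 155, 122 and 117 TPM in mock and 118, 150, 117, 129 and 141 TPM in NCAC. CAC values of Mag went from 78.7 to 127 TPM with a median of 96.9 TPM. Again 6 of the 7 were below the whole mock range and replicate 3 was inside it. Mag fell by 0.50 ± 0.10 against mock (adjusted p = 1.81e-04).

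Cnp, a phosphodiesterase of the cytoplasmic channels of myelin, was 1 of the 4 most abundant of the 38 genes. Mock libraries gave 374, 320, 347, 312 and 288 TPM of Cnp and NCAC libraries 295, 349, 325, 321 and 310 TPM. CAC libraries gave 256 to 307 TPM with a median of 285 TPM, 5 of them below all mock values. The log2 difference was small, -0.20 ± 0.06 (adjusted p = 0.00829). Mog, an antigen on the outermost membrane, and Ermn, a cytoskeletal protein, fell by 0.32 and 0.38 (adjusted p = 0.00946 and 0.00476). Gjc3, another connexin, was at -0.19 (adjusted p = 0.0898), and Cntn2, an adhesion protein near the node of Ranvier that neurons also make, at 0.03 with a 95% interval of -0.06 to 0.12.

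Hapln2, a link protein of the matrix at the node of Ranvier, moved the other way. It stood at 33.0, 28.9, 32.3, 25.4 and 28.0 TPM in mock and 28.7, 30.1, 28.2, 30.5 and 25.5 TPM in NCAC. CAC libraries ran from 28.7 to 48.5 TPM with a median of 34.8 TPM, 5 of 7 above every mock library. Hapln2 rose by 0.33 ± 0.12 against mock (adjusted p = 0.0364) and by 0.37 ± 0.12 against NCAC (adjusted p = 0.0277). The call against mock was lost in 12 of 24 alternatives, including 3 other scalings of the libraries.

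The compact myelin proteins form the stacked membrane itself. Pllp, a small membrane proteolipid, read 69.2, 51.2, 54.2, 46.3 and 41.7 TPM in mock and 47.8, 59.7, 52.7, 44.3 and 51.9 TPM in NCAC. Its CAC libraries ran from 21.6 to 50.7 TPM with a median of 28.0 TPM. Replicate 3, at 50.7 TPM, was again the only CAC library in the range of either comparison group. Pllp fell by 0.80 ± 0.16 against mock (adjusted p = 1.94e-04) and by 0.78 ± 0.16 against NCAC (adjusted p = 5.81e-04). Mbp, the basic protein that holds the cytoplasmic faces together, had the highest mean of the 38, 900.1 TPM over all libraries. Mock libraries of Mbp read 1050, 831, 956, 806 and 809 TPM and NCAC libraries 850, 870, 844, 822 and 866 TPM. CAC libraries ran from 631 to 855 TPM with a median of 739 TPM, and 4 of 7 were below all mock libraries. Mbp fell by 0.25 ± 0.07 against mock (adjusted p = 0.00550).

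The other 4 compact myelin proteins showed no difference that passed the test. Mobp, a small basic protein of the sheath, read 381, 274, 315, 271 and 288 TPM in mock and 301, 339, 299, 286 and 277 TPM in NCAC. In CAC it spanned 253 to 455 TPM with a median of 334 TPM, a wider spread that covered the mock range. The log2 difference of Mobp was 0.12 with a 95% interval of -0.07 to 0.32. For Mal, a membrane-trafficking proteolipid, the difference was 0.15 (-0.04 to 0.35), and for Cldn11, the claudin of myelin tight junctions, 0.14 (-0.04 to 0.33). Tspan2, a tetraspanin, was at -0.03 (-0.15 to 0.10). These intervals hold no decrease as large as that of Pllp in these libraries.

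Among the transcription factors, Sox10 and Olig1, which specify the lineage and its maturation, fell by 0.35 and 0.34 (adjusted p = 0.0152 and 0.0149). Sox10 lost its call in 5 and Olig1 in 4 of 24 alternatives, with limma adjusted p of up to 0.163 and 0.127. Mean Sox10 was 24.9 TPM in CAC and 32.0 TPM in mock, and mean Olig1 52.5 and 66.8 TPM. Olig2, a lineage factor shared with precursors, was at -0.33 against mock (adjusted p = 0.0731) and fell by 0.48 against NCAC (adjusted p = 0.0139). Myrf, which switches on myelin genes, was level, with a mean of 20.9 TPM in CAC and 21.2 TPM in mock and an interval of -0.15 to 0.12. Nkx6-2, a homeobox factor of maturing oligodendrocytes, was at -0.01 (-0.24 to 0.21). St18, a zinc-finger factor, rose by 0.16 (adjusted p = 0.0201), but that call was lost in 7 of 24 alternatives, other scalings among them.

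The late maturity genes held the other large differences. Serpinb1a, an inhibitor of serine proteases encoded at chr13:32842092-32851185 (mm10, minus strand), had the smallest adjusted p of the 38. Mock libraries read 25.6, 20.9, 23.7, 22.0 and 18.6 TPM and NCAC libraries 18.1, 23.3, 23.3, 19.5 and 19.8 TPM. CAC libraries spanned 4.05 to 17.4 TPM with a median of 7.58 TPM, all 7 below every mock and every NCAC library. Replicate 3, at 17.4 TPM, lay far above the other 6, which ended at 9.46 TPM. Serpinb1a fell by 1.35 ± 0.19 against mock (adjusted p = 1.60e-06) and by 1.26 ± 0.19 against NCAC (adjusted p = 9.13e-06).

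Klk6, a secreted serine protease at chr7:43824499-43832030 (mm10, plus strand), read 33.3, 29.8, 37.5, 24.9 and 30.7 TPM in mock and 27.4, 27.5, 18.0, 28.7 and 31.0 TPM in NCAC. CAC libraries of Klk6 ran from 7.10 to 23.0 TPM with a median of 11.4 TPM. All 7 were below mock, and 6 of 7 below NCAC, where replicate 3 of NCAC was low at 18.0 TPM. The log2 difference was -1.28 ± 0.25 from mock (adjusted p = 2.35e-04) and -1.04 ± 0.25 from NCAC (adjusted p = 0.00410).

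Lpar1 is a receptor for lysophosphatidic acid, the lipid that the Enpp2 product autotaxin makes. Mock libraries gave 28.5, 23.1, 25.3, 21.3 and 22.2 TPM of Lpar1 and NCAC libraries 23.6, 27.3, 20.2, 23.3 and 22.4 TPM. CAC libraries gave 10.3 to 21.4 TPM with a median of 16.5 TPM, and 1 of the 7 reached the mock range. Lpar1 fell by 0.55 ± 0.09 against mock (adjusted p = 4.37e-05). Car2, a carbonic anhydrase, read 293, 251, 259, 249 and 221 TPM in mock and 244, 251, 232, 224 and 263 TPM in NCAC. Its CAC libraries ran from 145 to 233 TPM with a median of 174 TPM, 6 of 7 below both groups. Car2 fell by 0.47 ± 0.08 against mock (adjusted p = 1.73e-05).

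Gpr37, a G-protein-coupled receptor of oligodendrocytes, gave 43.0, 33.8, 37.0, 34.1 and 28.8 TPM in mock and 30.7, 37.4, 35.2, 30.9 and 35.02 TPM in NCAC. CAC values were 18.8 to 40.03 TPM with a median of 25.6 TPM. Here CAC replicate 3, at 40.03 TPM, exceeded all NCAC libraries while the other 6 were below both groups. Gpr37 fell by 0.45 ± 0.12 against mock (adjusted p = 0.00474). Cryab, a small heat-shock protein, read 163, 138, 164, 145 and 150 TPM in mock and 159, 160, 128, 159 and 168 TPM in NCAC. In CAC it ran from 80.4 to 156 TPM with a median of 111 TPM. Only replicate 5 was inside the mock range. Cryab fell by 0.43 ± 0.10 against mock (adjusted p = 0.00193).

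Qdpr, which recycles tetrahydrobiopterin, and Adamts4, a protease that cleaves proteoglycans, fell by 0.41 and 0.39 (adjusted p = 3.35e-04 and 1.23e-04), and all 7 CAC libraries of Adamts4 were below mock. Smaller decreases were measured for the membrane protein gene Tmem125, at -0.33 (adjusted p = 0.0325), and the stress-responsive Ndrg1, at -0.21 (adjusted p = 0.0350). Those 2 calls were lost in 10 and 11 of 24 alternatives. Trf, which encodes the iron carrier transferrin, was at -0.41 (adjusted p = 0.0676) and Plekhh1 at -0.16 (adjusted p = 0.0872).

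Enpp2, which encodes autotaxin, was the second most abundant of the 38 genes and the most variable. Its standard deviation pooled over the 12 groups was 40.2% of its mean over all libraries. At 8 wk it read 947, 946, 938, 860 and 608 TPM in mock and 962, 1025, 866, 621 and 1164 TPM in NCAC. CAC libraries ran from 493 to 1140 TPM with a median of 881 TPM, so the groups overlapped fully, and the log2 difference was -0.06 (-1.03 to 0.91). Autotaxin RNA is also made by the choroid plexus, an epithelium next to the cerebellum. In the 10 libraries of the series with the lowest mean of 9 choroid plexus genes, Enpp2 read 124 to 380 TPM with a median of 135 TPM. In the 10 with the highest mean it read 866 to 1075 TPM with a median of 926 TPM. Trf, another gene both tissues use, had medians of 332 and 322 TPM in the same 2 sets. The plot of both genes against the choroid plexus genes shows these libraries.

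**Figure D2:**
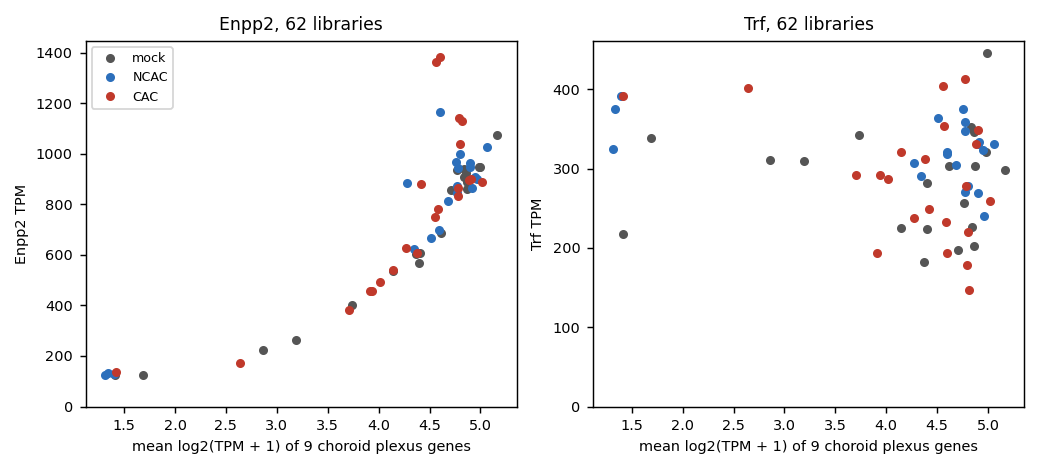
TPM of Enpp2 and of Trf (y axes) against the mean log2(TPM + 1) of 9 choroid plexus genes (x axis) in each of the 62 libraries, coloured by treatment. The libraries with the lowest choroid plexus mean hold 124 to 380 TPM of Enpp2, while Trf has like levels at both ends.

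Non-overlap gave a second, simpler count. Every CAC library was below every mock library for 4 of the 38 genes, Serpinb1a, Klk6, Aspa and Adamts4, against 1.25% of all genes tested. None of the 38 was above mock in all CAC libraries, against 3.24% of all genes. Against NCAC, 5 genes lay fully below, Opalin, Gal3st1, Serpinb1a, Tmem125 and Adamts4, against 0.653% of all genes, and none lay fully above, against 1.94%. The decreases were not limited to scarce RNAs: 6 of the 12 most abundant of the 38 genes, 10 of the 14 between and 8 of the 12 least abundant fell, with median differences of -0.23, -0.33 and -0.36.

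The CAC libraries differed among themselves. Counting genes of the 38 below the whole mock range, CAC replicates 1 to 7 had 20, 22, 12, 23, 17, 29 and 28. Replicate 3 had the fewest and replicate 6 the most. Replicate 3 also had the highest Opalin, Serpinb1a, Klk6, Pllp and Ugt8a of its group and the lowest Mobp, Mal and Cldn11, at 253, 96.5 and 113 TPM. Its lower glucocorticoid response, given above, moved with these values, and the part of that response in them was not tested. Without replicate 3 the counts against mock were 26 lower and 3 higher. The heat map of all 38 genes in the 17 libraries of 8 wk shows the same contrast within the CAC group.

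**Figure D3:**
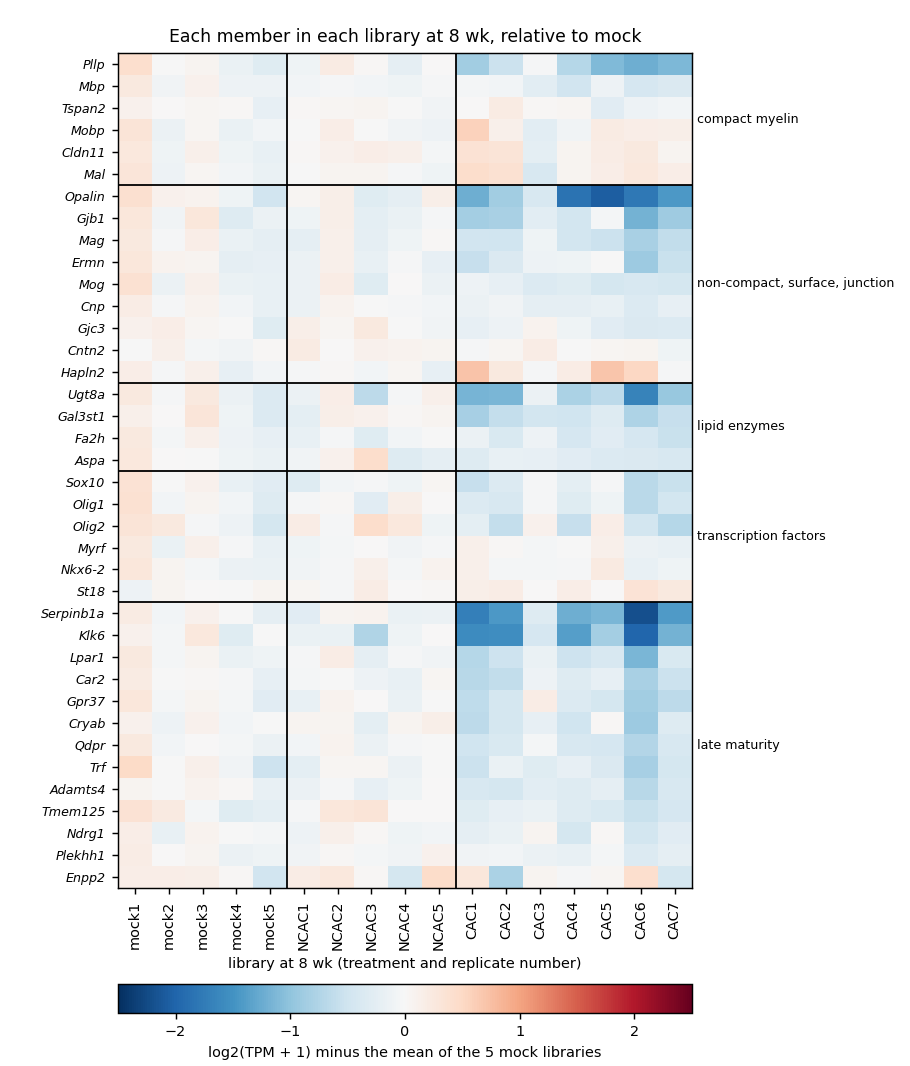
Each of the 38 genes (y axis, by role) in each library of 8 wk (x axis, by treatment and replicate), coloured by log2(TPM + 1) minus the mean of the 5 mock libraries. Blue marks lower and red higher; CAC replicate 3 has 12 genes below the whole mock range and CAC replicate 6 has 29.

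Ratios between genes of the same library put the uneven decrease on a scale that does not depend on the library's total. The 7 pairs were chosen after their values were seen, and are given as a description. Opalin per 100 TPM of Mobp was 1.67 ± 1.18 (SD, n = 7) in CAC, 4.58 ± 0.73 (n = 5) in NCAC and 4.68 ± 0.79 (n = 5) in mock. Serpinb1a per 100 TPM of Mal was 6.75 ± 5.19 in CAC, 16.3 ± 1.32 in NCAC and 17.3 ± 0.95 in mock. The weakest contrast was Gjb1 per 100 TPM of Gjc3, at 36.7 ± 10.5 in CAC, 44.9 ± 7.50 in NCAC and 50.1 ± 9.12 in mock. The CAC ratios spread widely, and in 6 of the 7 pairs the highest CAC library reached or passed the lowest mock library. It was 4.14 against 3.39 for Opalin per Mobp and 18.0 against 16.2 for Serpinb1a per Mal. The exception was Klk6 per 100 TPM of Hapln2, where the highest CAC ratio was 79.4 and the lowest mock ratio 98.0.

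Promoter sequences are shown for the most strongly reduced gene, Opalin, for Klk6, for Mobp, which was not called, and for Hapln2, which rose. They come from RefSeq on GRCm38.p6, the assembly called mm10, and 25 of the 38 genes had an entry. Each runs 5′ to 3′ on the gene's strand up to its start. Windows of 250 bases upstream were searched, and the printed part is trimmed to bases that also precede the GENCODE M21 gene start. Capitals mark matches on either strand to ACAAAG or ACAATG (SOX factors), CTGGNAC (MYRF) or CAGCTG (an E-box bound by OLIG factors); no 2 marked matches overlap. The windows are chr19:41077114-41077363 (minus) for Opalin, chr7:43824294-43824498 (plus) for Klk6 at the first of 2 listed starts, chr9:120149492-120149706 (plus) for Mobp and chr3:88027584-88027761 (minus) for Hapln2.
Opalin: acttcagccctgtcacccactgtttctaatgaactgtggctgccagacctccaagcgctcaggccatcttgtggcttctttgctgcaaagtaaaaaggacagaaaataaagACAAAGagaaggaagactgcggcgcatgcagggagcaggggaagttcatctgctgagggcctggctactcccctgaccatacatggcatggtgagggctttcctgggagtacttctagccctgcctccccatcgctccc
Klk6: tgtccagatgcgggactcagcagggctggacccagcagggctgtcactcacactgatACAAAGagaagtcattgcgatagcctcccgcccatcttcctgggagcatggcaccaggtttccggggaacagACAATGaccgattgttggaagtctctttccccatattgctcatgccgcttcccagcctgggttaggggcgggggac
Mobp: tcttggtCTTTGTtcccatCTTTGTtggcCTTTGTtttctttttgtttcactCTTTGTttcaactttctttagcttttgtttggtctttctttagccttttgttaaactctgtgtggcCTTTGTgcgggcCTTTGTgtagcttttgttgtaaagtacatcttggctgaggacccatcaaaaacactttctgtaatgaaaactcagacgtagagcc
Hapln2: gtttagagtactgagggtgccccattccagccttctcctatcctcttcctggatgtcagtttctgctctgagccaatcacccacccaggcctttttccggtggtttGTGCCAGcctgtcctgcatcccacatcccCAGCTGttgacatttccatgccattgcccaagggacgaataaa
In the printed parts Opalin has 1 SOX match, Klk6 has 2, Mobp has 6, and Hapln2 has 1 MYRF match and 1 E-box. The full windows, which the counts below use, also hold 1 SOX match for Hapln2 and, over both listed starts, 1 MYRF match for Klk6. Of the 25 genes, 12 (48.0%) held a SOX match, against 28.2% of 27025 genes with promoters, and 9 (36.0%) held a MYRF match, against 17.9%. An E-box was found in 2 (8.0%), against 14.7%. Among the 15 of these genes that fell, 8 had a SOX and 7 a MYRF match, and among the other 10, 4 and 2. A gene was counted when any of its listed starts held a match, so genes with more starts had more sequence searched. Gjb1 had 4 listed starts, Gal3st1, Lpar1 and Mag 3 each and Klk6 2, and all of these fell. Among the genes that did not fall only Tspan2, with 2, had more than 1. The shares were not adjusted for the number of starts. A match describes these letters only and says nothing about binding.

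The second comparison set CAC against NCAC, where both groups carried melanoma cells. It shares the CAC libraries with the comparison against mock, so the lists are given side by side and are not independent. At 8 wk, 21 of the 38 genes fell and 1, Hapln2, rose, while 4.01% of all genes tested fell and 7.76% rose. The median difference of the 38 was -0.29, against 0.02 for all genes. By role, 3 of 4 lipid enzymes, 9 of 13 late maturity genes, 6 of 9 non-compact, surface and junction genes, 2 of 6 transcription factors and 1 of 6 compact myelin proteins fell. Mbp, at -0.19 (adjusted p = 0.0511), Mog, Fa2h, Sox10 and Ndrg1 fell against mock and were not called here. Gjc3 and Olig2 fell here, by 0.27 and 0.48, and were not called against mock. Of the 21, 11 kept their call under all 24 alternatives, as did 14 of the 24 against mock. With replicate number as a block, or with the 2 groups fitted alone, 12 genes fell against NCAC.

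NCAC and mock were compared in the same way. None of the 38 genes was called between them in any week, at a background of 0% at 4, 6 and 8 wk and 0.0139% at 2 wk (limma). At an unadjusted p under 0.05 there were 0, 1, 10 and 0 of the 38 at 2, 4, 6 and 8 wk, and 5.42%, 2.13%, 8.35% and 7.21% of all genes tested. At 6 wk 36 of the 38 genes lay above 0 in NCAC against mock, with a median of 0.17 against -0.02 for all genes. There Ndrg1 was higher in every NCAC library than in any mock library (adjusted p = 0.588), against 0.41% of all genes, and none of the 38 was fully below, against 0.82%.

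The time course showed when the differences appeared. At 2 and 4 wk none of the 38 was called in CAC against mock or against NCAC (limma), where the background was 0% at 2 wk and 0.00694% at 4 wk. At an unadjusted p under 0.05 there were 1 and 5 of the 38 against mock, where 4.84% and 7.98% of all genes had one. Against NCAC there were 0 and 7 of the 38, and 6.85% and 9.47% of all genes. At 6 wk 12 genes fell and 1 rose against NCAC, with a background of 1.99% lower and 7.47% higher. Against mock, in the same week, 0 fell and 1 rose, with a background of 0.313% lower and 1.41% higher, and 12 of the 38 had an unadjusted p under 0.05, as did 16% of all genes. The median difference at 6 wk was -0.22 from NCAC and -0.07 from mock.

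The genes that fell against NCAC at 6 wk included 3 lipid enzymes, Ugt8a, Gal3st1 and Fa2h. Ugt8a read 23.6, 31.5, 33.4, 42.7 and 30.7 TPM in CAC, 47.9, 60.7, 57.7, 51.4 and 57.3 TPM in NCAC, and 36.2, 41.98, 51.2, 51.5 and 54.4 TPM in mock. All 5 CAC libraries were below NCAC, against 1.15% of all genes, and 4 of 5 were below mock. Ugt8a fell by 0.77 ± 0.17 against NCAC (adjusted p = 0.00515) and was at -0.53 against mock (adjusted p = 0.0825). Opalin read 2.94, 9.09, 2.90, 15.7 and 5.19 TPM in CAC, 12.4, 20.7, 14.05, 13.7 and 19.8 TPM in NCAC, and 15.2, 11.0, 12.1, 9.71 and 15.3 TPM in mock. CAC replicate 4 was above all mock libraries and inside the NCAC range, and the other 4 were below both groups. Opalin fell by 1.28 ± 0.30 against NCAC (adjusted p = 0.00800) and was at -0.96 against mock (adjusted p = 0.0836). The others that fell were Mag, Mog, Pllp, Serpinb1a, Qdpr, Cryab, Lpar1 and Olig1, by 0.33 to 0.66. St18 was higher in every CAC than in any NCAC library at 6 wk, against 5.59% of all genes, with a log2 difference of 0.16 (adjusted p = 0.0561). The count of 12 was unsteady: it was 1 without CAC replicate 1, 18 without CAC replicate 4, and 2 with the groups fitted alone.

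Hapln2 was the gene that rose at 6 wk in both comparisons. It read 45.4, 34.9, 46.5, 31.3 and 32.6 TPM in CAC, 25.3, 24.8, 26.1, 36.1 and 32.1 TPM in NCAC, and 19.5, 27.3, 25.8, 33.3 and 30.2 TPM in mock. It rose by 0.47 ± 0.12 against mock (adjusted p = 0.0336) and by 0.39 ± 0.12 against NCAC (adjusted p = 0.0408). CAC replicates 1 and 3 were highest and the groups overlapped. At 4 wk, where none of these genes was called, the CAC libraries spread widely. Opalin read 26.8, 5.58, 14.2, 6.27 and 19.6 TPM in CAC and 20.5, 16.0, 13.8, 9.13 and 9.94 TPM in mock. The 26.8 TPM of CAC replicate 1 was the highest Opalin value of the series. CAC replicates 2 and 4 were below all mock libraries of Opalin and the other 3 were not. The same 2 replicates had the lowest Pllp of their group, at 30.1 and 35.1 TPM, and the lowest Ugt8a, at 26.1 and 37.7 TPM. Klk6 did not follow: replicate 2 had the lowest value of the group, 10.5 TPM, and replicate 4 the highest, 43.8 TPM. At 2 wk Opalin read 17.05, 16.1, 16.9, 22.4 and 19.7 TPM in CAC, within the mock range of 15.3 to 23.9 TPM.

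**Figure D4:**
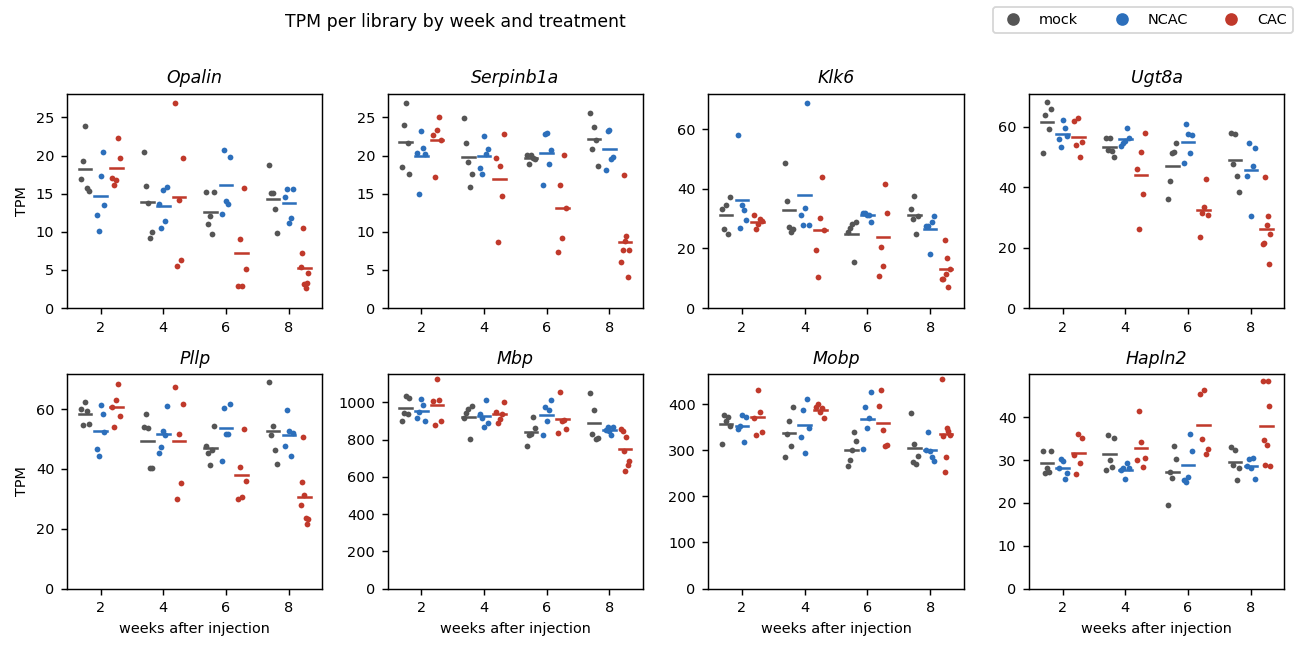
TPM of 8 of the genes (y axes, from 0) in every library at 2, 4, 6 and 8 wk (x axis), coloured by treatment, with a bar at each group mean. At 8 wk most CAC libraries lie below the other groups for Opalin, Serpinb1a, Klk6, Ugt8a and Pllp; Mobp stays mixed, and Hapln2 is higher in part of the CAC libraries.

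Within the CAC mice, 31 of the 38 genes fell from 2 to 8 wk and none rose, with a background of 9.62% lower and 8.26% higher. Mean Opalin went from 18.4 to 5.25 TPM, a log2 difference of -1.74 ± 0.28 (adjusted p = 1.30e-05). Mean Ugt8a went from 56.7 to 26.2 TPM (-1.15 ± 0.15, adjusted p = 7.43e-07). Mean Pllp went from 60.7 to 30.5 TPM (-1.02 ± 0.16) and mean Mbp from 985 to 748 TPM (-0.40 ± 0.07). All 4 lipid enzymes, 12 of 13 late maturity genes and 8 of 9 non-compact, surface and junction genes were among the 31. The 7 genes not called were Mobp, Mal, Hapln2, Myrf, Nkx6-2, St18 and Enpp2.

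The controls also drifted over these weeks without passing the test. In mock mice 0 of the 38 were called from 2 to 8 wk (limma, background 0%), but 31 lay below 0, against 58.1% of all genes, and 9 had an unadjusted p under 0.05, as did 8.41% of all genes. Mean Cldn11 went from 171 to 135 TPM in mock (-0.34, adjusted p = 0.351). In NCAC mice 0 were called, with a background of 0.0417% lower and 0.00694% higher, and 10 had an unadjusted p under 0.05, as did 13.6% of all genes. The change was therefore also tested as a difference of differences. From 2 to 8 wk the CAC minus mock difference fell for 6 of the 38 genes and rose for 0, with a background of 0.59% lower and 0.958% higher. These were Serpinb1a (-1.38, adjusted p = 0.00857), Pllp (-0.86, adjusted p = 0.0414), Ugt8a (-0.81, adjusted p = 0.0494), Lpar1, Mag and Car2. The CAC minus NCAC difference fell for 9 and rose for 0, with a background of 1.31% lower and 2.67% higher. Among the 9 were Opalin (-1.67, adjusted p = 0.0159), Serpinb1a (-1.40, adjusted p = 0.00420) and Gal3st1 (-0.65, adjusted p = 0.0166). Without the 2 wk CAC replicate 1 the first count was 1, and without the 2 wk NCAC replicate 2 the second was 4.

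**Figure D5:**
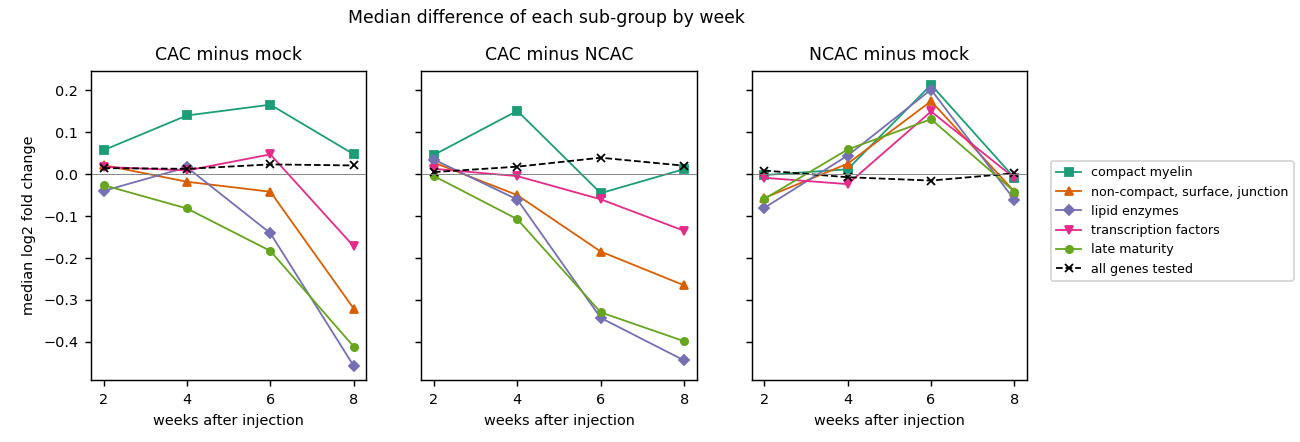
Median log2 fold change (y axis) of the genes of each role at 2, 4, 6 and 8 wk (x axis) in 3 panels, CAC minus mock, CAC minus NCAC and NCAC minus mock; the dashed line is the median of all genes tested. At 8 wk the lipid enzymes reach -0.46 and the late maturity genes -0.41 against mock, while the compact myelin proteins stay at 0.05.

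Related lists place these genes among others of the lineage and the tissue at 8 wk in CAC against mock. Among all genes tested in that comparison 7.34% fell and 13.4% rose. Of 30 other genes of mature oligodendrocytes, 10 fell and 3 rose, with a median of -0.09. The 3 that rose are near the share of all genes. Gamt, which completes creatine synthesis, fell by 0.64 (adjusted p = 9.17e-06), from a mean of 16.4 TPM in mock to 10.3 TPM in CAC. Apod, a lipid-binding lipocalin, rose by 0.91 (adjusted p = 4.54e-05), from 269 to 526 TPM. Of 19 genes of precursors and newly formed oligodendrocytes, 5 fell and 1 rose, with a median of -0.10, and without CAC replicate 3, 8 fell. Among them Gpr17, a receptor of newly committed cells, fell by 0.89 (adjusted p = 5.37e-04) and Enpp6, a choline phosphodiesterase of newly formed cells, by 0.64 (adjusted p = 1.36e-04). Of 16 genes of general sphingolipid and sulfatide metabolism 1 fell and 2 rose, both near the shares of all genes. Their median was -0.0045, while Ugt8a, Gal3st1, Fa2h and Aspa all fell.

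Markers of other cells moved less evenly, in the same comparison with 7.34% of all genes lower and 13.4% higher. None of 8 granule neuron genes was called, and 1 of 8 Purkinje genes fell. Among 8 astrocyte and Bergmann glia genes 2 fell and 2 rose. Of 7 microglia genes 4 fell, and their summed level was 124 to 155 TPM in CAC, 124 to 146 TPM in NCAC and 137 to 213 TPM in mock. Without mock replicate 5, 3 of the 7 fell, and over all alternatives 2 to 7 fell. Against NCAC none of the 7 microglia genes was called, where 4.01% of all genes fell and 7.76% rose. None of 9 choroid plexus genes was called. Of 12 brainstem neuron genes 3 were above the testing minimum and none was called, with summed levels of 33.0 to 49.9 TPM in CAC and 33.4 to 74.2 TPM in mock. All 12 glucocorticoid response genes rose, with a median of 1.08, and their summed level was 701 to 1273 TPM in CAC, 508 to 696 TPM in NCAC and 495 to 651 TPM in mock. The part of the microglia genes or of the glucocorticoid response in the myelin gene differences was not tested.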

How the data were processed

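The 62 cerebellum libraries were made by stranded messenger RNA sequencing. The authors deposited TPM per gene symbol, already normalized so that each library sums to 1e+06. The build was mm10, per the submitters' processing notes. Which aligner, quantifier and annotation made the values is not given in the sources used here. Because TPM keeps no depth, the sequencing depth is unknown and values carry no counting intervals. Groups came from the sample descriptions, because the treatment field names cachectic cells for every sample. The 38 genes, the related lists and the comparisons were chosen with earlier results of these data known.

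All 12 groups entered 1 fit of log2(TPM + 1) in limma 3.58.1 (R 4.3.3; trended empirical Bayes, 50 residual degrees of freedom) over the 14399 symbols with a mean of at least 1 TPM. P-values were two-sided and Benjamini-Hochberg adjusted within each of 17 comparisons, with a threshold of 0.05. Fold changes are on the log2(TPM + 1) scale, which understates changes of low genes. Values per library are given for the 12 called genes with the largest difference from mock at 8 wk and the 4 most abundant genes; up to 4 genes of each other list are named by smallest p. Alternatives changed the pseudocount, the filter, the scaling, the weights, the covariates, the block and the libraries. On simulated data for CAC against mock at 8 wk (14399 genes), 30 of 50 genes changed 1.25-fold and 48 of 50 changed 2-fold were recovered, with 8 false calls. Promoters came from RefSeq GRCm38.p6 and gene positions from GENCODE M21.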

Additional observations from a re-analysis of the deposited data

Results flagged for a closer look

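Among 66 sets of 5 or 7 libraries at 8 wk (16 genes, the mean of all 38 and the mean of each role, in 3 groups), 5 held a library far from its group by Dixon's criterion, where chance alone marks about 1 in 20, or 3.3 of 66. Serpinb1a read 17.4 TPM in CAC replicate 3, against 4.05 to 9.46 TPM in the other 6, and Gpr37 read 40.03 TPM in the same library, against 18.8 to 27.5 TPM. In NCAC replicate 3, Klk6 read 18.0 TPM, against 27.4 to 31.0 TPM in the other 4, and Cryab 128 TPM, against 158 to 168 TPM. Enpp2 read 608 TPM in mock replicate 5, against 860.0 to 947 TPM in the other mock libraries.

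Several genes changed their difference between groups from 2 to 8 wk, by a test of the difference of differences in limma with Benjamini-Hochberg adjustment. For CAC minus mock the log2 changes were -1.38 for Serpinb1a (adjusted p = 0.00857), -0.86 for Pllp (0.0414), -0.81 for Ugt8a (0.0494), -0.54 for Lpar1 (0.0365), -0.52 for Mag (0.0452) and -0.41 for Car2 (0.0471). For CAC minus NCAC they were -1.67 for Opalin (adjusted p = 0.0159), -1.40 for Serpinb1a (0.00420), -0.99 for Pllp (0.0110), -0.80 for Ugt8a (0.0352) and -0.65 for Gal3st1 (0.0166). In the same comparison Tmem125 changed by -0.59 (adjusted p = 0.0376), Lpar1 by -0.48 (0.0396), Qdpr by -0.46 (0.0271) and Car2 by -0.40 (0.0325). The 2 comparisons share the CAC libraries.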

How the results depend on the processing

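No called gene reversed its direction under the alternatives run for CAC minus mock at 6 and 8 wk and for CAC minus NCAC at 8 wk. In NCAC minus mock at 8 wk none of the 38 was called under any alternative. Single genes of the remaining comparisons were not followed. Differences near 0 that were not called did change sign at 8 wk against mock: Enpp2 ran from -0.20 to 0.14, Nkx6-2 from -0.05 to 0.06, Myrf from -0.06 to 0.05, Tspan2 from -0.09 to 0.01 and Cntn2 from -0.01 to 0.06. The median of the 38 for CAC minus mock ran from -0.03 to 0.04 at 2 wk and from -0.05 to 0.04 at 4 wk over left-out libraries. In CAC against mock at 8 wk the 24 genes that fell numbered 16 (without mock replicate 1) to 27 (without mock replicate 5) when each library was left out in turn. The 2 that rose numbered 0 (without CAC replicate 6) to 3 (without CAC replicate 3), and 1 without the filter on low values. They numbered 0 with median-of-ratios scaling, quantile normalization, mitochondrially encoded genes removed, or the 2 groups fitted alone. At 6 wk the 0 that fell numbered 4 with sample weights and 0 to 3 over left-out libraries, and the 1 that rose 0 to 1. That 1 became 0 without the filter, with the groups alone and with a brainstem covariate. Against NCAC at 6 wk the 12 that fell numbered 2 with the groups alone and 1 to 18 over left-out libraries. The 1 that rose numbered 0 to 2 over left-out libraries, 0 without the filter, with the 3 rescalings or with the groups alone, and 2 with a minimum mean of 5 TPM, sample weights or the brainstem covariate. At 8 wk the 21 that fell numbered 12 with the groups alone and 15 to 24 over left-out libraries, 15 without CAC replicate 6; the 1 that rose numbered 0 to 2, with 2 under sample weights and 0 with the groups alone. From 2 to 8 wk the 31 that fell in CAC numbered 27 to 31. The 0 that fell in NCAC numbered 3 with sample weights or the groups alone, 1 with the brainstem covariate and 0 to 1 over left-out libraries, and 0 to 1 for those that rose. The change of CAC minus mock, 6 genes, numbered 1 without the filter, with the groups alone or with the brainstem covariate, 3 with a choroid plexus covariate, 12 with sample weights and 1 to 13 over left-out libraries. The change of CAC minus NCAC, 9 genes, numbered 5 without the filter, 14 with sample weights and 4 to 13 over left-out libraries. The remaining counts over left-out libraries were 0. The brainstem covariate, and leaving out CAC replicate 3 and mock replicate 5 together, were chosen after seeing the data, as were all alternatives for the related lists. Leaving out CAC replicate 3 and mock replicate 5 together gave 27 that fell against mock, 2 that rose against NCAC, and 17 and 13 genes for the 2 changes. The cause of these shifts was not tested, and depth could not be weighed because TPM keeps none.

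The replicate numbers gave no uniform pairing across comparisons. Same-numbered libraries correlated at -0.24 to 0.40 in their deviations, with 16 of 60 over 0.1, and 17 of 60 correlated best with their own number. For CAC against NCAC the median was 0.17 at 2 wk and 0.20 at 4 wk, with 3 of 5 best with their own number in each week. At 8 wk that median was -0.11 with 1 of 5, and against mock -0.03 with 0 of 5. Whether same-numbered samples share a batch was not tested. With replicate number within week as a block, 17 genes fell and 0 rose against mock at 8 wk, and 12 fell and 0 rose against NCAC. Under the same block 0 rose against mock at 6 wk, and the 2 changes over time held 1 and 2 genes. The block gives no value for 8 wk minus 2 wk within a treatment, because it is nested in week.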
